A study of Mus musculus with 6 samples.

Results

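Kinesins are motor proteins that use ATP to move along microtubules or to take them apart. One branch of the family works in dividing cells, where it separates the spindle poles, positions chromosomes and closes the cleavage furrow, and its genes are transcribed mainly from S phase to mitosis. Another branch carries vesicles, mitochondria and cytoskeletal proteins along axons and dendrites, so it is abundant in neurons, which do not divide. Brain tumor tissue holds both kinds of cell, and the balance of the 2 branches was measured here in glioma grown in hosts with and without Esm1, the gene of the secreted endothelial proteoglycan Endocan. Every gene whose symbol was Kif followed by a number and an optional letter was taken, which gave 35 of the 16729 genes in the deposited table. By their known roles, 11 are mitotic motors, 6 are transport motors enriched in neurons, 5 are transport motors found in most cells, 4 carry membranes, 6 belong to cilia and centrioles and 3 fit none of these classes. The kinesins named Kifc1, Kifc2, Kifc3 and Cenpe fall outside the symbol rule and were read with the partner lists.

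The 6 RNA-seq libraries came from intracranial tumors of mG7080 cells, a gliomasphere line derived from mice with glioma-driving mutations. The 3 hosts labelled WT and the 3 labelled ESM1-KO were C57BL/6 mice (C57BL/6J in the methods), females, and the methods give their age as 6 to 8 weeks (older mice are named in the reporting summary). Esm1 was deleted in the KO hosts and not in the injected cells. All tumors came from this one line, and RNA was taken from tumor tissue at the endpoint, so each library mixed tumor cells with host neurons, glia, immune cells and vessels. Fewer cells of a type and less RNA per cell therefore cannot be told apart in any of the values below. Nothing in the labels ties libraries to litters or days. The p-values set the difference between groups against the spread between these tumors within a group.

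Gene counts summed to 17632070 to 22241832 reads in a library. Levels are given as CPM (read counts brought to a common library size), with library sizes scaled by trimmed mean of M values (TMM) factors (0.866 to 1.073), and 1 read was worth 0.0441 to 0.0568 CPM. The deleted gene was read first as a check of the labels. Esm1 had 1 read in KO 1, 4 in KO 3 and 24 in the library labelled KO 2, against 25 in WT 1, 21 in WT 2 and 82 in WT 3. The library labelled KO 2 had 1.06 CPM of Esm1, close to the 1.11 and 1.18 CPM of WT 2 and WT 1. That was above the 0.0568 and 0.208 CPM of KO 1 and KO 3, which puts its label in doubt. The injected cells kept Esm1, so reads from host and tumor cells cannot be told apart. These counts therefore cannot settle the label, and the share of tumor cells in each library was not measured. The mitotic and transport classes are compared over all 6 libraries and without this library. For many single genes and lists only the fold change without it is given. Over all 6 libraries no gene passed an adjusted p of 0.05 in edgeR's quasi-likelihood test. Scaling by library size alone moved the median log2 fold change of all genes from -0.02 to -0.17 over 6 libraries and to -0.29 over 5, and values below are from TMM scaling. Without the library labelled KO 2, 4608 genes were lower and 3986 higher in KO, and by library size alone these counts were 6014 and 2526.

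The mitotic kinesins were far lower, and 5 of the 6 neuron-enriched transport kinesins were 1.96- to 3.07-fold higher, in KO 1 and KO 3 than in the WT tumors. The library labelled KO 2 did not share either difference. The 11 mitotic kinesins together had 65.9 CPM in KO 1, 458 CPM in the library labelled KO 2 and 36.7 CPM in KO 3, against 395 CPM in WT 1, 712 CPM in WT 2 and 672 CPM in WT 3. The 11 transport kinesins together had 10237, 5448 and 9773 CPM in the same KO libraries and 5914, 2995 and 3706 CPM in WT 1, WT 2 and WT 3. KO 1 and KO 3 were the lowest of the 6 libraries for the first sum and the highest for the second, while the library labelled KO 2 lay between WT 1 and WT 3 in both. The ratio of the second sum to the first, which compares libraries and is not corrected for gene length, was 155 in KO 1 and 267 in KO 3, but 11.9 in the library labelled KO 2 and 14.99, 4.20 and 5.52 in WT 1, WT 2 and WT 3. As a mean of log2 CPM over members, the mitotic minus transport difference was -6.44 in KO 1, -2.74 in the library labelled KO 2 and -7.91 in KO 3, and it was -3.11, -1.56 and -1.83 in the WT libraries. The group means were -5.69 ± 2.66 (SD, n = 3) for KO and -2.17 ± 0.83 (SD, n = 3) for WT, and the groups overlapped through the library labelled KO 2.

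**Figure D1:**
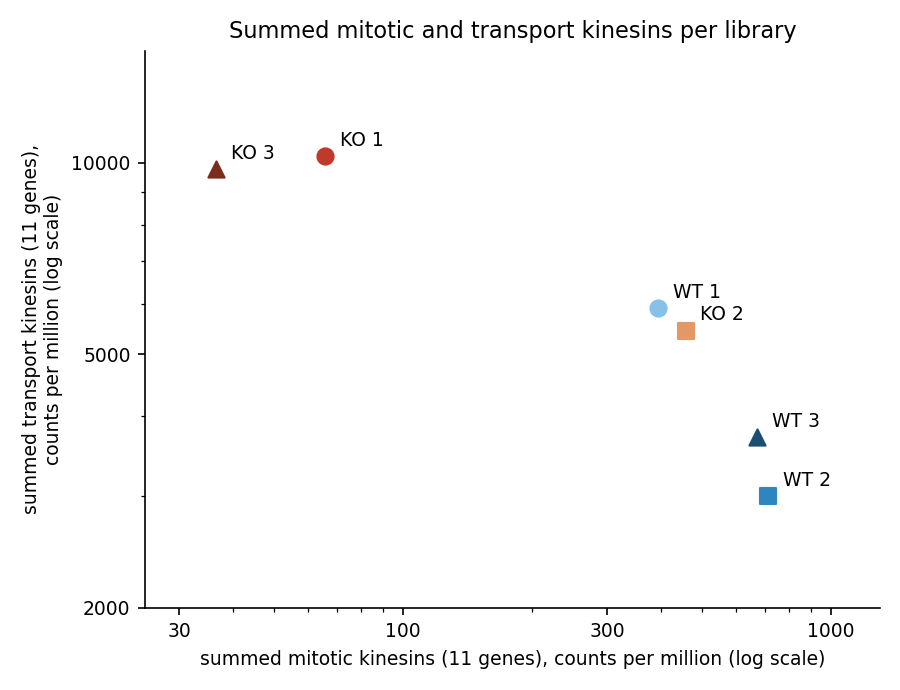
Each point is 1 library, with the summed CPM of the 11 mitotic kinesins on the x axis and of the 11 transport kinesins on the y axis, both on log scales. KO 1 and KO 3 sit at the upper left (65.9 and 36.7 CPM mitotic), while the point labelled KO 2 (458 CPM mitotic) sits beside WT 1 (395 CPM).

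In edgeR's quasi-likelihood test over all 6 libraries, none of the 35 members passed an adjusted p of 0.05 in either direction, as was true of all 16166 genes tested (0% lower and 0% higher), and the smallest adjusted p was 0.184. At an unadjusted p under 0.05, 0 of 11 mitotic members were lower (background 11.9% of genes) and 4 of 6 neuron-enriched transport members were higher (background 15.2%). DESeq2 called 431 genes lower and 775 higher and edgeR's exact test 81 and 107 over the same 6 libraries. No mitotic or transport member was among these calls, but DESeq2 gave no adjusted p for 7 of the 11 mitotic members, so it could not have called them. Without the library labelled KO 2, 16279 genes were tested and 28.3% of them were called lower and 24.5% higher at an adjusted p of 0.05. There, 11 of 11 mitotic members were lower, 5 of 6 neuron-enriched and 2 of 5 broad transport members were higher, and no member of these classes was called the other way. The median log2 fold change over 5 libraries was -3.93 for the mitotic members, 1.48 for the neuron-enriched and 0.57 for the broad transport members, beside -0.02 for all genes tested. Over 6 libraries the same medians were -1.66, 1.20, 0.44 and -0.02.

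These calls rested on few libraries. Leaving out KO 3 as well, so that KO 1 alone stood against the WT libraries and was taken to vary as they do, left 0 of 11 mitotic and 0 of 11 transport members called, with Kif11 at a log2 fold change of -3.34 and an adjusted p of 0.0686 (0.00319 to 0.0389 without any 1 of the other 4). Leaving out KO 1 instead kept 11 of 11 mitotic calls and 0 of 11 transport calls. Leaving out WT 2 left 3 transport calls (Kif1a, Kif5c and Kif17), leaving out WT 3 left 1 (Kif17), and leaving out WT 1 gave 8.

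**Figure D2:**
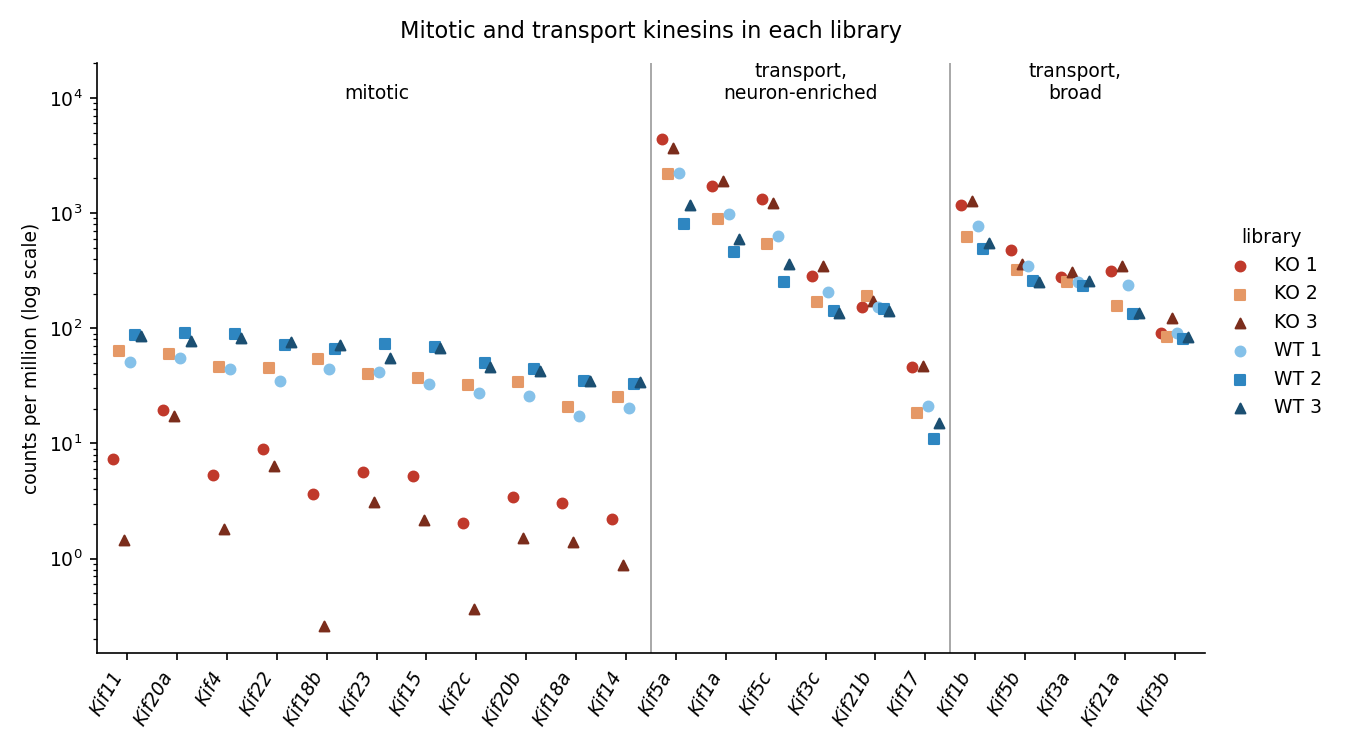
CPM on a log scale are shown for the 22 mitotic and transport kinesins, 1 point per library. In all 11 mitotic genes KO 1 and KO 3 lie below every other library, whereas for Kif5a, Kif1a, Kif5c, Kif3c and Kif17 they lie above, and the point labelled KO 2 lies among the WT libraries for most genes.

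Among the motors that build the spindle, Kif11, which slides antiparallel microtubules apart to make the spindle bipolar, had 7.27 CPM in KO 1, 64.0 CPM in the library labelled KO 2 and 1.45 CPM in KO 3, against 50.9, 88.0 and 84.9 CPM in WT 1 to WT 3. KO 1 and KO 3 were far below every WT library, and the library labelled KO 2 was within their range. Its log2 fold change was -1.62 ± 1.20 (SE) over 6 libraries (edgeR adjusted p = 0.339) and -4.08 ± 0.69 without the library labelled KO 2 (adjusted p = 0.0104). Kif15, which helps to hold the poles apart, had 5.17, 36.8 and 2.18 CPM in the KO libraries in that order and 32.8, 69.4 and 68.04 CPM in the WT libraries. The pattern was that of Kif11, with a log2 fold change of -3.93 ± 0.53 over 5 libraries (edgeR adjusted p = 0.00798). Kif18b, which trims the astral microtubules that reach the cell cortex, had 3.63, 53.7 and 0.260 CPM in KO and 44.4, 66.5 and 71.2 CPM in WT. The value of KO 3 stands on 5 reads, and the log2 fold change over 5 libraries was -4.96 ± 0.87 (edgeR adjusted p = 0.0109).

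Among the motors that act on chromosomes, the chromokinesin Kif22, which pushes chromosome arms toward the spindle equator, had 8.86, 44.9 and 6.39 CPM in the KO libraries and 35.1, 71.9 and 76.1 CPM in the WT libraries. Kif4, the other chromokinesin, which also sets the length of the central spindle, had 5.28, 46.5 and 1.82 CPM in KO and 44.0, 89.9 and 82.0 CPM in WT. Over 5 libraries Kif22 was lower by a log2 fold change of -2.98 ± 0.40 and Kif4 by -4.32 ± 0.57 (edgeR adjusted p = 0.00798 for both). Exons of Kif4 share 832 bases, 15.1% of their length, with Pdzd11 on the opposite strand, and whether the counting used strand was not stated, so reads of the pair cannot be told apart there. Kif2c, which takes microtubules apart at kinetochores, had 2.04, 32.04 and 0.363 CPM in KO (7 reads in KO 3) and 27.3, 49.96 and 46.0 CPM in WT. Of all 35 members it had the lowest log2 fold change without the library labelled KO 2, -5.09 ± 0.68 (edgeR adjusted p = 0.00798). Kif18a, which dampens chromosome movement at the metaphase plate, had 3.01, 20.5 and 1.40 CPM in KO and 17.3, 35.0 and 35.1 CPM in WT, a log2 fold change of -3.70 ± 0.49 over 5 libraries.

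Among the motors of the central spindle and cytokinesis, Kif23, the motor of the centralspindlin complex, had 5.68, 39.9 and 3.12 CPM in the KO libraries and 41.8, 73.6 and 54.9 CPM in the WT libraries. It was the only mitotic member whose groups did not overlap over all 6 libraries, although the library labelled KO 2 missed WT 1 by less than the WT libraries differed from each other. Such separation toward lower values in KO was found for 14.8% of all genes tested, so 1 of 11 members was no more than the background. The log2 fold change of Kif23 was -1.80 ± 0.95 over 6 libraries (edgeR adjusted p = 0.221) and -3.67 ± 0.38 over 5 (adjusted p = 0.00798). Kif20b and Kif14, which act at the midbody, had 3.41, 33.8 and 1.51 CPM and 2.21, 25.5 and 0.883 CPM in the KO libraries. In the WT libraries Kif20b had 25.8, 44.7 and 42.1 CPM and Kif14 had 20.3, 32.7 and 34.1 CPM. Both were low only in KO 1 and KO 3, with log2 fold changes of -3.92 ± 0.44 and -4.21 ± 0.47 over 5 libraries.

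Kif20a, which brings the kinase Aurora B to the central spindle, stood apart from the other mitotic members. It had 19.4, 59.9 and 17.3 CPM in the KO libraries and 54.7, 90.9 and 77.2 CPM in the WT libraries, so KO 1 and KO 3 were 4.05-fold below the WT mean on average, whereas Kif11 was 17.1-fold and Kif2c 34.1-fold below. Its log2 fold change was -1.20 ± 0.53 over 6 libraries (edgeR adjusted p = 0.188) and -1.996 ± 0.24 over 5 (adjusted p = 0.00798). Of the reads on the 11 mitotic kinesins, Kif20a took 13.9%, 12.8% and 11.5% in the WT libraries and 13.1% in the library labelled KO 2, but 29.4% in KO 1 (exact 95% interval 26.8 to 32.1) and 47.2% in KO 3 (43.4 to 50.9). Those intervals cover counting error only. Exons of Kif20a share 1271 bases, 29.3% of their length, with Cdc23 on the opposite strand. Cdc23, a subunit of the anaphase promoting complex, had 1028, 1850 and 1126 reads in the KO libraries and 1664, 1945 and 1914 reads in the WT libraries, and its part in the count of Kif20a was not tested.

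The make-up of the mitotic class differed in other members as well. Kif22 took 8.90% to 11.3% of the class in the WT libraries, 13.4% in KO 1 and 17.4% in KO 3. Kif18b took 9.33% to 11.3% in the WT libraries but 5.51% in KO 1 (exact 95% interval 4.27 to 6.99) and 0.708% in KO 3 (0.230 to 1.65). Kif2c likewise took 6.85% to 7.01% in the WT libraries, 3.10% in KO 1 and 0.992% in KO 3. Kif4 took 8.01% in KO 1, 10.16% in the library labelled KO 2 and 4.96% in KO 3, below the 11.15% to 12.62% of WT. Kif15 was also below the WT range in all 3 KO libraries, whereas Kif23 kept a share within it. In KO 3, 2 of the 11 members had a share above the WT range, 8 below and 1 within it. Shares within a library add up to a fixed whole, so the larger shares of Kif20a in KO 1 and KO 3 lower those of the other members. The positions below and within the WT range therefore depend in part on Kif20a, and shares without Kif20a were not computed.

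**Figure D3:**
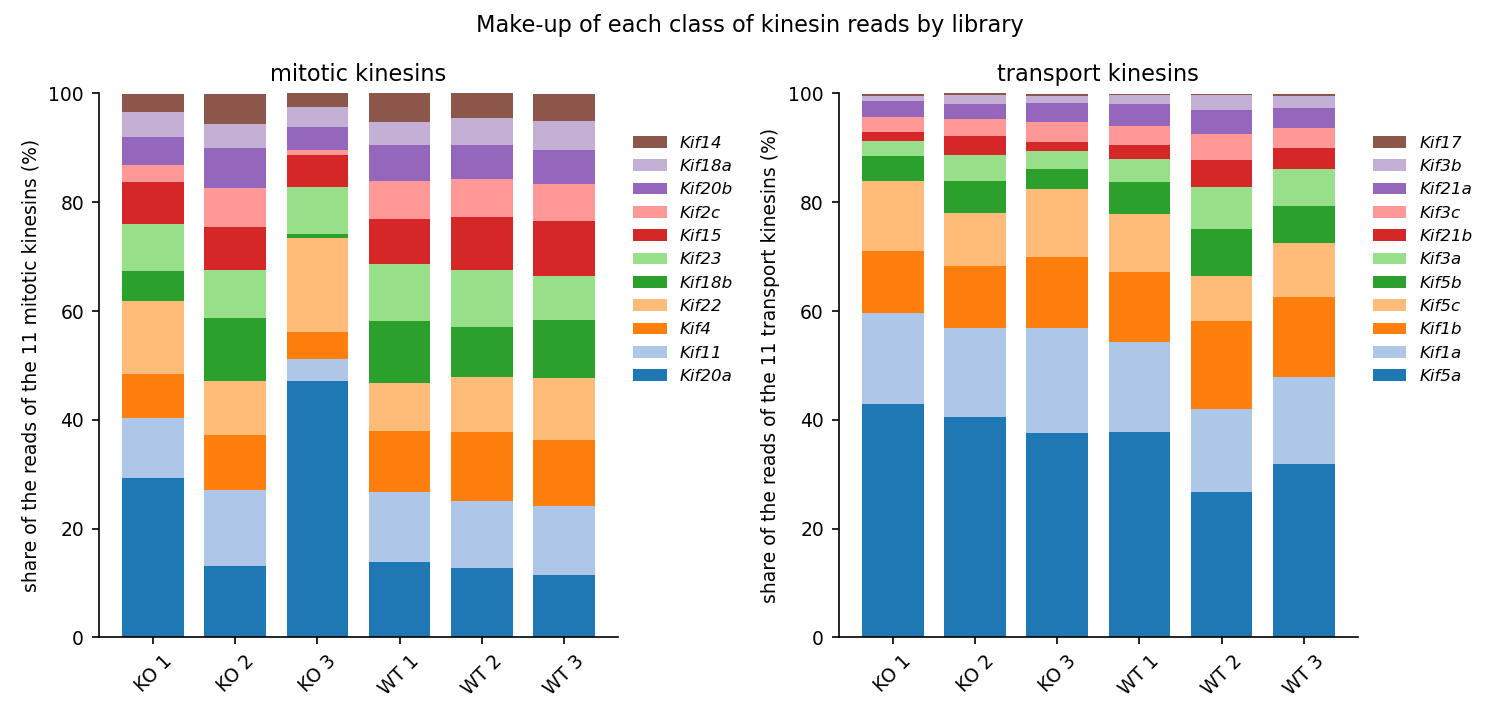
Stacked bars give, for each library, the percentage of the reads of the 11 mitotic kinesins (left) and of the 11 transport kinesins (right) that fell on each gene. Kif20a takes 29.4% and 47.2% of the mitotic reads in KO 1 and KO 3 and 11.5% to 13.9% in the other 4 libraries, and Kif5a takes 26.6% to 43.0% of the transport reads.

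Because the mitotic members moved together, their promoters were read for elements known from cell cycle genes. The cell cycle genes homology region (CHR), here TTTGAA or TTCGAA on either strand, is a site through which such genes are repressed outside division, and the CCAAT box, on either strand, is bound by NF-Y. Windows ran from 250 bases before to 50 bases after each start in RefSeq (GRCm38.p6), and matches of the 2 motifs in the members did not overlap. A CHR was present in 9 of 10 mitotic members with a window and a CCAAT box in 6 of 10, against 19.2% and 37.4% of all 32851 windows, and both in 6 of 10 against 7.53%. Kif18a was the mitotic member without either. Of the neuron-enriched transport members, 1 of 4 had a CHR and 0 of 4 a CCAAT box, and of the broad ones 0 of 4 and 3 of 4. The 4 mitotic windows below show the elements near the start, and 2 transport windows without either are set beside them. Each runs from 150 bases before to 20 after the start, with CHR and CCAAT matches on either strand in capitals.
Kif11 (chr19:37376232-37376401, plus strand): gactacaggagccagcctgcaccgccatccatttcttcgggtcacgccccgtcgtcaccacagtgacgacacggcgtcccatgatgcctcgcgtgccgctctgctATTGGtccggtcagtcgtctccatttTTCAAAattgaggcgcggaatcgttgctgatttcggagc
Kif22 (chr7:127042401-127042570, minus strand): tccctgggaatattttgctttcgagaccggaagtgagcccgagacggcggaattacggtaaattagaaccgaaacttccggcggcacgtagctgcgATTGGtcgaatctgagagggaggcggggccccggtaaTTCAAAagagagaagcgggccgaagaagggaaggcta
Kif23 (chr9:61946780-61946949, minus strand): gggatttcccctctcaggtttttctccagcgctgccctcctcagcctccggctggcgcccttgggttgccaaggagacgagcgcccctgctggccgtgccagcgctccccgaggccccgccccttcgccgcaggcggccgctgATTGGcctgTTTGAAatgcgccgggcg
Kif18b (chr11:102925105-102925274, minus strand): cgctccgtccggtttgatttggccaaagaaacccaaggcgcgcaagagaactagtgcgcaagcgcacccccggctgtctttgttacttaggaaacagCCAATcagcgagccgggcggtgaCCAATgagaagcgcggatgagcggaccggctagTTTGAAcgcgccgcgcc
Kif5c (chr2:49619136-49619305, plus strand): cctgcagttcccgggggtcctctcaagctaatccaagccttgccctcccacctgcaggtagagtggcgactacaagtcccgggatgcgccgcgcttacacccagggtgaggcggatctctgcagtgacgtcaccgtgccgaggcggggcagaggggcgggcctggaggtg
Kif3c (chr12:3364982-3365151, plus strand): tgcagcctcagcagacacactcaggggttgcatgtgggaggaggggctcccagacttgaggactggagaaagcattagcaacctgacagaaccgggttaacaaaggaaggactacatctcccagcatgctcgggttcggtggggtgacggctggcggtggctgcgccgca
In Kif11 and Kif22 the CHR began 19 and 17 bases before the start, downstream of the CCAAT box. In Kif22 another pair of matches lay farther upstream. In Kif23 and Kif18b the CHR began 2 and 3 bases after the start, 1 CCAAT box preceding it in the first and a pair of them in the second. Kif20b had 2 adjoining CHR matches 7 and 13 bases after the start and no CCAAT box. Of the other mitotic members with a CHR, Kif15 had it 19 bases before the start with another farther upstream, Kif4 19 bases after it, Kif2c at -103 and Kif14 at -228. A match of these letters is a description of the window and not a measured site. Of the mitotic members, a stretch just after the RefSeq start of Kif11, Kif23, Kif2c and Kif4 was in no annotated transcript of the gene. The annotated genes of Kif2c, Kif4 and Kif14 also began upstream of their windows. Positions and counts for all these members hold for the RefSeq start only.

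Among the neuron-enriched transport motors, Kif5a, the neuronal kinesin-1 heavy chain that moves neurofilaments and mitochondria, had 4399 CPM in KO 1, 2205 CPM in the library labelled KO 2 and 3675 CPM in KO 3, and 2235, 798 and 1178 CPM in WT 1 to WT 3. KO 1 and KO 3 were above every WT library, the library labelled KO 2 was just below WT 1, and the WT libraries differed from each other nearly 3-fold, from 798 to 2235 CPM. The log2 fold change was 1.29 ± 0.51 over 6 libraries (edgeR adjusted p = 0.184) and 1.53 ± 0.49 over 5 (adjusted p = 0.0421), a call that was lost by library size alone (1.29, adjusted p = 0.0513). Kif5c, the second neuronal heavy chain, had 1313, 536 and 1226 CPM in KO and 626, 250.5 and 365 CPM in WT. Its log2 fold change over 5 libraries was 1.63 ± 0.41 (edgeR adjusted p = 0.0225). Kif1a, which carries synaptic vesicle precursors down the axon, had 1703, 897 and 1888 CPM in KO and 973, 459 and 597 CPM in WT, a log2 fold change of 1.42 ± 0.37 over 5 libraries (edgeR adjusted p = 0.0246).

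Kif17, a motor of dendrites, had the lowest level per length of this class in the WT libraries, and it was the transport member that stayed called without any 1 of the 3 WT libraries. It had 46.2, 18.5 and 47.0 CPM in the KO libraries and 21.0, 10.8 and 15.2 CPM in the WT libraries, and KO 1 and KO 3 had at least 2 times the level of any WT library. The log2 fold change was 1.25 ± 0.43 over 6 libraries (edgeR adjusted p = 0.184) and 1.58 ± 0.29 over 5 (adjusted p = 0.0113). Kif3c, a kinesin-2 motor enriched in neurons, had 284, 168 and 350.2 CPM in KO and 208, 141 and 136 CPM in WT, a log2 fold change of 0.99 ± 0.25 over 5 libraries (edgeR adjusted p = 0.0229). An antisense gene, 1110002L01Rik, shares 2617 exon bases with Kif3c, 35.3% of the exon length of Kif3c. The antisense gene had 1494, 1196 and 1802 reads in the KO libraries and 1255, 867 and 887 reads in the WT libraries. Its part in the count of Kif3c was not tested. Kif21b was the exception of the class. It had 154, 190.4 and 172 CPM in KO and 154, 148 and 142 CPM in WT, with the library labelled KO 2 the highest, and its log2 fold change over 5 libraries was 0.16 ± 0.14 (edgeR adjusted p = 0.362), or -0.11 by library size alone.

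Among the transport motors found in most cells, Kif1b, which carries mitochondria and synaptic vesicle precursors, had 1179, 614 and 1274 CPM in the KO libraries and 768, 485 and 547 CPM in the WT libraries. Kif21a, which damps microtubule growth and works in axons, had 312, 157 and 348 CPM in KO and 239, 133 and 135 CPM in WT. These were the 2 called members of the class, with log2 fold changes of 1.05 ± 0.28 (edgeR adjusted p = 0.0252) and 0.98 ± 0.31 (adjusted p = 0.0403) over 5 libraries, and by library size alone Kif21a was no longer called (0.72, adjusted p = 0.0695). Kif5b, the kinesin-1 heavy chain of all cells, had 475, 323 and 363 CPM in KO and 345, 258 and 252 CPM in WT, and its log2 fold change of 0.57 ± 0.23 did not pass in edgeR (adjusted p = 0.0839) and passed in DESeq2 (adjusted p = 0.0348). The kinesin-2 subunits Kif3a and Kif3b, which work in axons and in cilia, varied least. Kif3a had 281, 254 and 308 CPM in KO and 253, 231 and 255 CPM in WT, and Kif3b 90.9, 84.1 and 122 CPM in KO and 91.7, 81.3 and 83.2 CPM in WT. Their log2 fold changes over 5 libraries were 0.27 ± 0.16 and 0.34 ± 0.17 (edgeR adjusted p = 0.181 and 0.139).

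Related members were set against each other on the authors' FPKM scale, which divides by gene length. Some pairs held a neuronal form and a widely expressed one, and others did not, such as Kif20a to Kif20b and Kif18a to Kif18b. The ratio of Kif5a to Kif5b was 8.86, 6.52 and 9.67 in KO 1, the library labelled KO 2 and KO 3, and 6.18, 2.95 and 4.47 in the WT libraries. The ratio of Kif1a to Kif1b was 1.82, 1.84 and 1.87 in KO and 1.60, 1.19 and 1.37 in WT. In both pairs all 3 KO libraries, the one labelled KO 2 included, lay above all 3 WT libraries, the library labelled KO 2 lying close to WT 1 in the first. Of 10 pairs of relatives read, the other 8 overlapped over all 6 libraries, among them Kif5c to Kif5b, Kif1a to Kif1c and Kif3c to Kif3b, and no share over other gene pairs was computed. The smallest p that an exact permutation test can give for 3 against 3 libraries is 0.1, so no test was made. Without the library labelled KO 2, 40.3% of genes tested separated toward lower and 37.2% toward higher values in KO. No share over other gene pairs was computed there either. The 8 pairs that overlapped over all 6 libraries separated in that comparison. Among them, Kif2a, a microtubule depolymerase of neurons and spindle poles, stood to its mitotic relative Kif2c at 33.8 in KO 1 and 240 in KO 3, at 1.71 in the library labelled KO 2 and at 0.988 to 2.25 in WT.

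The make-up of the transport class also differed between libraries. Kif5a took 43.0%, 40.5% and 37.6% of its reads in KO 1, the library labelled KO 2 and KO 3 and 37.8%, 26.6% and 31.8% in the WT libraries. Kif1a took 16.6%, 16.46% and 19.3% in KO and 16.45%, 15.3% and 16.1% in WT. The exact counting intervals of the library labelled KO 2 (16.25 to 16.67) and WT 1 (16.25 to 16.66) nearly coincided. Counting error alone covers the gap between these libraries, so these shares cannot decide whether the groups overlap. Kif3a took 2.74% in KO 1 and 3.15% in KO 3, below the 4.27% to 7.72% of the WT libraries, and 4.66% in the library labelled KO 2. Here too, a larger share of any member lowers those of the others.

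Ranked by FPKM within each library, Kif5a was first and Kif1a second of the 35 members in all 6 libraries. The WT means were 234 ± 120 (SD, n = 3) for Kif5a, 87.3 ± 32.7 for Kif1a, 63.7 ± 28.5 for Kif5c, 61.6 ± 14.2 for Kif1b, 49.9 ± 8.25 for Kif5b and 47.8 ± 2.16 for Kif3a, and neighbours from Kif1a to Kif3a differed by less than 1 SD of the higher one. Kif22 led the mitotic members in the WT libraries with an FPKM of 31.4 ± 11.95 and Kif14 was their last with 3.70 ± 1.01. Kif22 ranked 10th, 7th and 7th in the WT libraries and 9th in the library labelled KO 2, but 17th in KO 1 and 18th in KO 3. Kif18b went from the 16th, 12th and 10th rank in WT to the 28th in KO 1 and the 35th, the last, in KO 3.

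**Figure D4:**
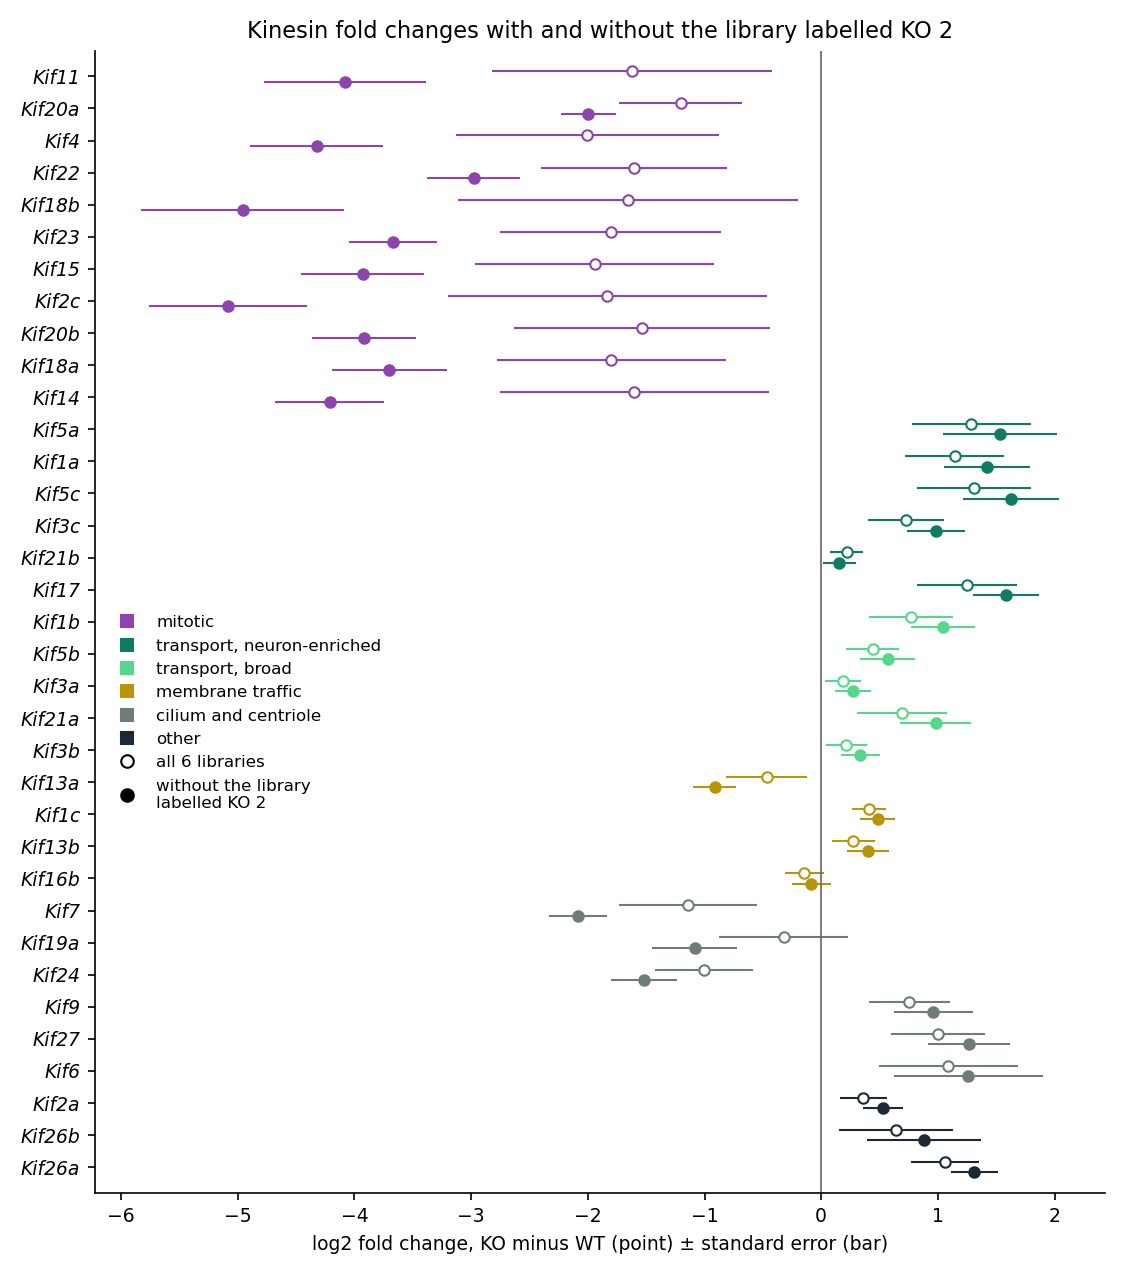
Points are log2 fold changes (KO minus WT) of the 35 members with their standard errors, open over all 6 libraries and filled without the library labelled KO 2, colored by class. Without that library the mitotic members lie between -5.09 and -1.996 and the transport members between 0.16 and 1.63, and over 6 libraries the mitotic bars are wider.

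The 13 members of the remaining classes did not move as one. Of the membrane carriers, Kif13a, which moves endosomes and Golgi vesicles, had 66.1, 121 and 46.7 CPM in the KO libraries and 98.5, 114 and 110.1 CPM in the WT libraries. Its log2 fold change was -0.91 ± 0.19 over 5 libraries (edgeR adjusted p = 0.0142), and the library labelled KO 2 was the highest of all. Kif1c, a carrier of vesicles, had 163, 131 and 134 CPM in KO and 112, 101 and 109.5 CPM in WT, so the groups did not overlap over all 6 libraries, as was the case toward higher values in KO for 12.6% of genes tested. It was called higher over 5 libraries with a log2 fold change of 0.49 ± 0.15 (edgeR adjusted p = 0.0385), whereas Kif13b and Kif16b were not called (0.40 ± 0.18 and -0.08 ± 0.17).

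The cilium and centriole class split. Kif7, which regulates Hedgehog signaling at the tip of the primary cilium, had 6.81, 26.4 and 6.90 CPM in the KO libraries and 21.4, 33.5 and 33.8 CPM in the WT libraries. KO 1 and KO 3 lay below every WT library, the library labelled KO 2 lay within them, and the log2 fold change over 5 libraries was -2.09 ± 0.25 (edgeR adjusted p = 0.00798). An antisense gene, 9330171B17Rik, shares 877 exon bases with it, 19.1% of its length. Kif24, which acts on centrioles, had 2.498, 5.29 and 2.02 CPM in KO and 5.46, 7.93 and 6.35 CPM in WT. All 3 KO libraries lay below all 3 WT libraries, as was the case for 14.8% of genes tested, though the library labelled KO 2 and WT 1 were close. Over 5 libraries the log2 fold change was -1.52 ± 0.29 (edgeR adjusted p = 0.0123). The kinesins of motile cilia differed among themselves over 5 libraries. Kif19a was lower, at -1.08 ± 0.36 (edgeR adjusted p = 0.0479), Kif27 higher at 1.27 ± 0.35 (adjusted p = 0.0287), and Kif9 (0.96 ± 0.34) and Kif6 (1.26 ± 0.64) were not called. Kif6 had the lowest FPKM of the members in each WT library, with 2.26, 0.476 and 0.943 CPM there and 3.52, 1.98 and 2.39 CPM in KO.

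Of the last 3 members, Kif26a, a kinesin without motor activity, had 12.7, 7.05 and 12.6 CPM in the KO libraries and 5.65, 4.97 and 4.86 CPM in the WT libraries. All 3 KO libraries, the one labelled KO 2 included, lay above all 3 WT libraries, as was the case for 12.6% of genes tested. The log2 fold change was 1.06 ± 0.29 over 6 libraries (edgeR adjusted p = 0.184) and 1.31 ± 0.20 over 5 (adjusted p = 0.00892). Kif2a was higher over 5 libraries by 0.53 ± 0.17 (edgeR adjusted p = 0.0441), and its exons share 19.2% of their length with Dimt1 on the opposite strand. Kif26b was not called (0.89 ± 0.49). Without the library labelled KO 2, the groups of all 11 mitotic members and of 9 of 11 transport members did not overlap, in a table where 40.3% of genes separated toward lower and 37.2% toward higher values in KO.

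The proteins that work with each branch were read as lists, over 5 libraries in which 28.3% of all genes were called lower and 24.5% higher. Of 20 partners of mitotic kinesins, among them the kinases, the chromosomal passenger complex and the motors Kifc1 and Cenpe, 19 were lower and none higher in edgeR's test over 5 libraries, with a median log2 fold change of -3.96. Aurkb, the kinase carried by Kif20a, had the lowest value of the list at -5.10 ± 0.63 (adjusted p = 0.00798), and Numa1, which anchors the spindle poles and has other nuclear roles, the highest at -0.44 ± 0.14 (adjusted p = 0.0402). Of 22 measured partners of transport kinesins, which include light chains, adaptors and cargo linkers, 17 were higher and none lower, with a median of 0.94. The adaptor Hap1, the lowest of them over 6 libraries, was at -0.31 ± 0.20 over 5 (adjusted p = 0.238), where the light chain Klc3 was lower still at -0.44 ± 0.19 (adjusted p = 0.0996). The scaffold Lin7a, a cargo adaptor of Kif17, was the highest at 2.08 ± 0.50 (adjusted p = 0.0203). Over all 6 libraries neither list had an edgeR call, with medians of -1.71 and 0.72.

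Dynein and dynactin, which move cargo the opposite way along microtubules in every cell, moved less. Of 23 genes 12 were higher and 1 lower over 5 libraries (24.5% and 28.3% of all genes), with a median log2 fold change of 0.57. The lower one was Nde1, a dynein regulator also needed in dividing progenitors, at -1.52 ± 0.19 (edgeR adjusted p = 0.00798), and the highest was the neuronal intermediate chain Dync1i1 at 1.64 ± 0.53 (adjusted p = 0.0437). Of 12 neuronal tubulins and microtubule-associated proteins, the tracks of these motors, 11 were higher, with a median of 1.37. Stmn2 was at 1.84 ± 0.49 (edgeR adjusted p = 0.0258) and Tubb2a, the exception, at 0.67 ± 0.24 (adjusted p = 0.0541). Neither the dynein and dynactin list nor the tubulin list had an edgeR call over all 6 libraries, with medians of 0.42 and 1.09.

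Markers of cell types were read beside both branches, against the 28.3% of all genes called lower and 24.5% called higher over 5 libraries. All 10 cell division markers were lower over 5 libraries, with a median log2 fold change of -4.33, and Mki67 had 31.8, 342 and 4.15 CPM in the KO libraries and 317, 488 and 507 CPM in the WT libraries. Of 16 neuron markers, which share Stmn2 with the tubulin list, 15 were higher and none lower, with a median of 1.84. Their sum was 15735 CPM in KO 1 and 19052 CPM in KO 3, 6082 CPM in the library labelled KO 2 and 2455 to 7042 CPM in the WT libraries. The myelinating oligodendrocyte sum was 7660, 3265 and 3961 CPM in KO and 1396 to 3426 CPM in WT, with 2 of 11 markers called higher, a share below that of all genes. The astrocyte sum was 6800, 4674 and 6145 CPM in KO and 3309 to 4281 CPM in WT, with 5 of 9 called higher and 1 lower. Slc1a2 alone made up 4123 CPM of the sum in KO 1 and 3744.5 CPM in KO 3. The lower marker was Gfap, at a log2 fold change of -2.24 ± 0.21 (edgeR adjusted p = 0.00798), so the sum does not describe every astrocyte marker.

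The microglia and macrophage sum was 800.1 CPM in KO 1, 1698 CPM in the library labelled KO 2 and 708 CPM in KO 3, and 1248 to 1345 CPM in WT, with 7 of 12 markers called lower and 1 higher. The endothelial sum was 209 to 280.2 CPM in KO and 241.0 to 292 CPM in WT, with 1 of 11 called lower and 2 higher, both shares below those of all genes. No marker of these lists was at 0 in any library. Over all 6 libraries no marker was called by edgeR, and the medians were 1.52 for the neuron markers and -1.79 for the cell division markers. The part of the neuron and cell division markers in the difference between the kinesin branches was not tested.

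**Figure D5:**
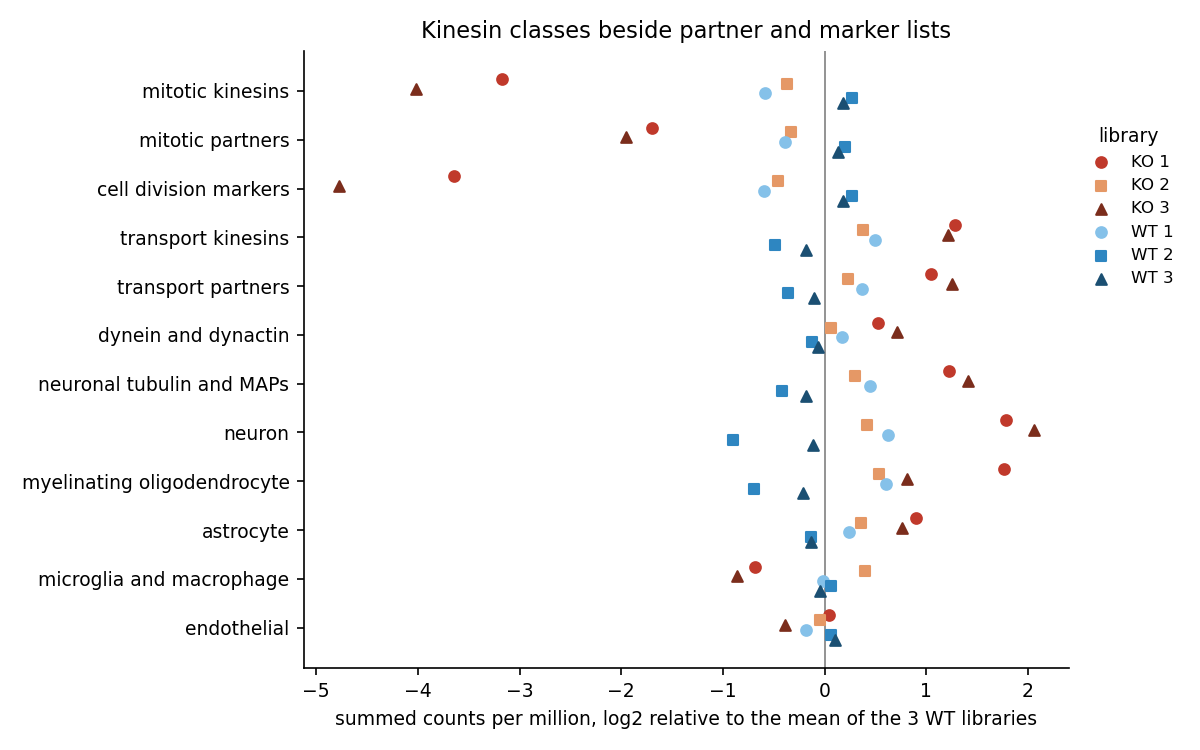
For each kinesin class, partner list and marker list, points give the summed CPM of each library on a log2 scale relative to the mean of the 3 WT libraries. KO 1 and KO 3 lie to the left for mitotic kinesins, their partners and cell division markers and to the right for transport kinesins and neuron markers, and the point labelled KO 2 lies near WT 1 in these lists.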

How the data were processed

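Members, classes and gene lists were chosen with earlier results of these data known. The authors deposited counts, whole numbers of reads per gene from HTSeq without normalization, and FPKM, which equals a library's count over its total and the gene's length. The sample labels name mm10, CASAVA 1.8.2, edgeR and the NEBNext Ultra kit, whereas the methods name hg38, uniquely mapped reads and the Ovation Ultralow kit. The authors' normalized counts, fold changes, p-values and false discovery rates were not used.

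The fit used edgeR 4.0.16 under R 4.3.3 (filterByExpr with minimum count 10 and minimum total 15, TMM factors, the quasi-likelihood test, Benjamini-Hochberg adjustment over all genes tested, calls at 0.05), once over all 6 libraries and once without the library labelled KO 2. The mitotic minus transport difference used log2 CPM with a prior count of 2. Named genes were every mitotic and transport member, the lowest and highest fold change of the remaining members and of each partner list, Esm1 and Mki67, and the other members and shares were chosen after their values were seen. Alternatives were RLE factors, library size alone, no filter, DESeq2 1.42.0, an exact test (edgeR) on tag-wise dispersions, a replicate block and each library left out. A score without Kif20a was added after seeing the data. The fit was tested on simulated data. Counting intervals are exact at 95%. Exon overlaps came from GRCm38 annotation and promoters from RefSeq (GRCm38.p6). Python 3.11.15 with pandas 2.3.3 drew up the tables and matplotlib 3.10.9 the figures.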

Additional observations from a re-analysis of the deposited data

How the results depend on the processing

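Over all 6 libraries no edgeR quasi-likelihood fit gave a call, except without KO 2. DESeq2 called 431 genes lower and 775 higher and edgeR's exact test 81 and 107, with no mitotic or transport member in either, though DESeq2 gave no adjusted p for 7 of the 11 mitotic members. Leaving out each library in turn gave 0 to 4608 genes lower, 0 to 3986 higher, 0 to 11 mitotic members lower and 0 to 7 transport members higher, the highest of each range being without KO 2. Over the 5 libraries, library size alone gave 2526 genes higher, turned Kif21b to -0.11 and left 5 transport calls, without Kif5a (adjusted p = 0.0513) and Kif21a (0.0695), whereas DESeq2 added Kif5b (0.0348) for 8. Leaving out each of the 5 gave 0 to 5532 genes lower, 0 to 5195 higher, 0 to 11 mitotic members lower and 0 to 8 transport members higher, and both zeros for the genes came without KO 3. In each of the other settings over 5 libraries 11 mitotic members were called lower. The group difference of the mitotic minus transport score, -3.53, ranged from -5.01 without KO 2 to -2.42 without KO 3, and was -3.66 without Kif20a.

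Deviations of same-numbered libraries correlated at 0.55, 0.60 and -0.21 across genes, so the numbers were not taken to pair the tumors. With the replicate block over 5 libraries, 2084 genes were lower and 1105 higher, 11 mitotic members were lower and 1 transport member, Kif17, was higher. Over 6 libraries the block gave 0 calls. Depth limited single values only at the lowest counts, such as the 5 reads of Kif18b and 7 of Kif2c in KO 3.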

Other observations

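The kinesin-14 motors, which walk the opposite way to most kinesins and carry Kifc symbols, split along the same line as the Kif genes. They were read out of their lists after their values were seen. Kifc1, which bundles spindle microtubules, had 3.75, 34.3 and 1.92 CPM in KO 1, the library labelled KO 2 and KO 3 and 26.9, 52.0 and 50.8 CPM in the WT libraries, a log2 fold change of -3.91 ± 0.45 (SE) without the library labelled KO 2 (edgeR adjusted p = 0.00798). Kifc2, a motor expressed in neurons, had 530, 267 and 628 CPM in KO and 213, 99.5 and 140.1 CPM in WT. All 3 KO libraries lay above all 3 WT libraries, with a log2 fold change of 1.66 ± 0.42 over 6 libraries (edgeR adjusted p = 0.184) and 1.95 ± 0.34 over 5 (adjusted p = 0.0109). Kifc3 was also above WT in every KO library, by less, with 65.6, 62.7 and 69.6 CPM against 54.2, 53.0 and 55.0 CPM and a log2 fold change of 0.34 ± 0.11 over 5 libraries (edgeR adjusted p = 0.048). The share of all genes tested that separated toward higher values over 6 libraries was 12.6%.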
